A study of Homo sapiens with 6 samples.

Results

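The genes described here are 10 partners of the mTOR kinase, namely RPTOR, RICTOR, MLST8, DEPTOR, AKT1, TSC1, TSC2, RHEB, RPS6KB1 and EIF4EBP1, out of 60708 genes counted in each library. They were taken by name from the mTOR pathway, without MTOR itself, and their unstranded gene counts were read in all 6 libraries. All 10 were found, and 9 passed the count filter of each comparison (a summed count of at least 200 over the libraries compared). DEPTOR did not.

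The libraries came from MDA-MB-231 cells, an established human line of mesenchymal triple-negative breast cancer (TNBC), transfected at 25 nM with a miR-99b-5p mimic, which is a synthetic form of the microRNA, or with a scrambled control and harvested 18 h later. AGO2, the Argonaute protein that carries microRNAs to their target mRNAs, was immunoprecipitated, and RNA was sequenced from the precipitate (AGO2-IP) and from the unbound flow-through. The mimic had 2 biological replicates of each fraction, and the scrambled control had 1 library of each. All groups therefore share the cell line, the transfection and the harvest time, and the AGO2-IP and flow-through of 1 replicate number come from the same replicate.

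mTOR is a serine/threonine kinase that works in a pair of complexes. mTORC1 holds RPTOR as its substrate-recruiting scaffold and mTORC2 holds RICTOR, whereas MLST8 and the inhibitor DEPTOR are found in both. Growth factor signals pass through PI3K to AKT1, which inhibits the TSC1-TSC2 complex. That complex is the GTPase-activating protein of RHEB, the small GTPase that switches on mTORC1, and the best-known outputs are phosphorylation of the S6 kinase RPS6KB1 and of EIF4EBP1, the inhibitor of cap-dependent translation. The pathway promotes growth and protein synthesis in breast cancer cells, and MTOR, RPTOR and IGF1R have been described as targets of the miR-99 family, which makes the partners a natural set to follow under this mimic.

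The microRNA sequences are shown because the seed, bases 2 to 8, defines what a target site would be. The mature sequences are from RefSeq on GRCh38.p14, with the seed in capitals, and the 3 family members share it. hsa-miR-99b-5p lies at chr19:51692618-51692639 on the plus strand, hsa-miR-99a-5p at chr21:16539101-16539122 on the plus strand and hsa-miR-100-5p at chr11:122152275-122152296 on the minus strand.
hsa-miR-99b-5p: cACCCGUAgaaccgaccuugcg
hsa-miR-99a-5p: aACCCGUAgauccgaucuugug
hsa-miR-100-5p: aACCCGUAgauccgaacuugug

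The main transcript of each partner was searched on its own strand for the 6mer ACGGGT, the 7mer-m8 TACGGGT, the 7mer-A1 ACGGGTA and the 8mer TACGGGTA, where the longer matches contain the 6mer. RPTOR was the partner with a match in the 3'UTR of its main transcript, a 7mer-m8 at chr17:80964736-80964742 on the plus strand of GRCh38, base 406 of a 3'UTR of 2038 bases. TSC1 and TSC2 each held a 6mer in the coding sequence, at chr9:132896732-132896737 on the minus strand and chr16:2061953-2061958 on the plus strand. The other 7 partners had no match in the main transcript, which says only that these letters are not in those windows. For reference, MTOR has a 3'UTR 7mer-m8 at chr1:11107184-11107190 on the minus strand and IGF1R, the IGF-1 receptor upstream of PI3K, a 3'UTR 8mer at chr15:98963044-98963051 on the plus strand. The matched bases are in capitals below, each with its flanking bases from the GRCh38 genome.
RPTOR 3'UTR: caggcgctggggctccTACGGGTccc
TSC1 coding sequence: gcttgactgttgtaatgACGGGTgct
TSC2 coding sequence: tgaccagaacgagttccACGGGTctc
MTOR 3'UTR: tccataactttagaaaTACGGGTttt
IGF1R 3'UTR: ttaagtccagtagatTACGGGTAgtc

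Such matches were uncommon but not rare. Among 11747 protein-coding genes tested, 6.67% held the 6mer in the 3'UTR of the main transcript, 1.34% the 7mer-m8, 0.315% the 8mer, and 9.82% a 6mer in the coding sequence. In these shares and in the medians below, genes with the 8mer also count under the 7mer-m8 and the 6mer. The single sites above are named by their longest match. When all annotated coding transcripts were searched, a 3'UTR 6mer was present in 3 of 6 transcripts of RPTOR, 7 of 33 of TSC1 and 5 of 29 of TSC2, and in none of the other partners.

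The mimic libraries held several times more gene counts than the control libraries, which bears on how precise each partner's value is. The control libraries were not sequenced less. They had 162644207 (AGO2-IP) and 100431185 (flow-through) read pairs, against 48404345 to 91866629 in the mimic. Multimapping pairs made up 76.7% and 73.7% of these, against 2.38% to 19.2% in the mimic. Any comparison of mimic with control carries this difference in composition, which cannot be told apart from the mimic. Gene counts were 38022779 to 48544756 in the 4 mimic libraries, 8076375 in the control AGO2-IP and 7772149 in the control flow-through. Read pairs assigned to no gene made up 21.4% to 47.2% of the pairs in the mimic libraries and 92.3% or more in the control libraries, and mitochondrially encoded genes took 43.4% of gene counts in the control flow-through against at most 3.48% elsewhere. The mesenchymal markers VIM, CD44, AXL, CAV1 and MSN were present in all 6 libraries (59.0 to 2729 CPM, a gene's count scaled to 1000000 gene counts), as was the epithelial keratin KRT8 (194.5 to 920 CPM). ESR1, PGR and the leukocyte marker PTPRC did not exceed 1.86 CPM, and CDH1, PECAM1 and EPCAM reached at most 3.96, 8.47 and 11.8. Each library is a bulk measurement, so fewer cells with a transcript and less transcript per cell cannot be told apart.

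**Figure D1:**
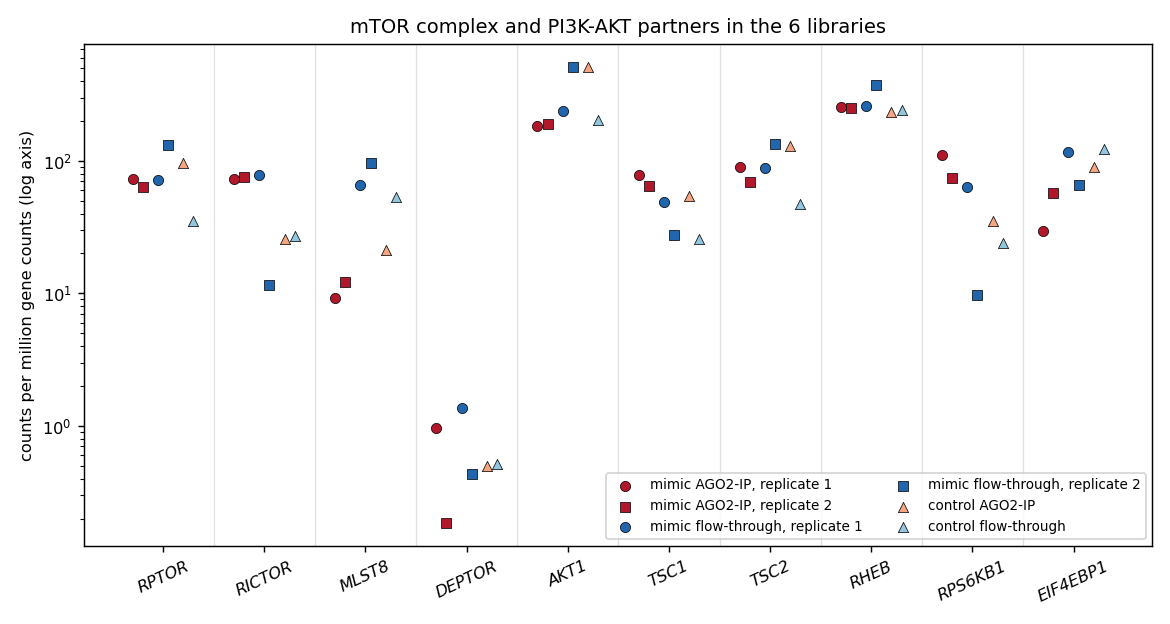
CPM of each partner in each of the 6 libraries, on a log axis, with 1 point per library. AKT1 and RHEB are at 182 CPM or more in every library, DEPTOR is at 1.36 CPM or less, and MLST8 is lower in both mimic AGO2-IP libraries (9.29 and 12.1 CPM) than in any other library.

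The partners covered a wide range of abundance. Per length (FPKM, the CPM divided by the exon length in kilobases, geometric mean over the 6 libraries), EIF4EBP1 had 82.0 (33.5 to 139), RHEB 75.1 (66.3 to 105) and AKT1 25.2 (16.6 to 46.7). RHEB exceeded AKT1 in all 6 libraries with no overlap of their ranges, but EIF4EBP1 exceeded RHEB in 3 of 6. RPTOR, MLST8, RPS6KB1, TSC2, RICTOR and TSC1 followed at 7.03, 6.98, 5.22, 4.27, 2.88 and 2.60 FPKM, and each overlapped its neighbour in this order. Thus the mTORC1 scaffold had the higher mean level of the 2 complex-defining subunits, with RPTOR at 3.40 to 12.9 and RICTOR at 0.859 to 5.82 FPKM. DEPTOR was the lowest at 0.208 FPKM, below TSC1 in all 6 libraries without overlap, with counts of 45 and 7 in the mimic AGO2-IP, 64 and 21 in its flow-through and 4 in each control library. With the length of the main transcript in place of all exons, RHEB came first, then AKT1 and then EIF4EBP1, and only DEPTOR kept its rank, so the order among the leading 3 and among the middle 6 depended on the length used.

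The central comparison asked which partner mRNAs were more or less abundant in the AGO2-IP than in the flow-through of mimic-transfected cells. None of the 9 partners tested passed the threshold (edgeR quasi-likelihood, absolute log2 fold change of at least 1 and Benjamini-Hochberg adjusted p below 0.05), against 0.658% of the 13078 genes tested (32 higher and 54 lower in the AGO2-IP). At an unadjusted p below 0.05 the count was 1 partner, MLST8, and 3107 genes. PyDESeq2 called 1 partner lower, again MLST8, against 8.26% of all genes. In an edgeR fit of protein-coding genes only, none of 11747 genes passed, the partners included. The median of the 9 partners was -0.58 and that of all genes tested -0.11 on the log2 scale. The p-values reflect the spread between 2 and 2 libraries. Where a flow-through replicate was left out, as given for single genes below, that arm held 1 library and the spread came from the AGO2-IP pair alone, which differed less between replicates (SD of the log2 difference over genes 0.84) than the flow-through pair did (1.44), so such calls say nothing of the flow-through's own spread.

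MLST8, the WD-repeat subunit shared by both mTOR complexes, had the lowest AGO2-IP share relative to flow-through among the partners. Its CPM was 9.29 and 12.1 in the mimic AGO2-IP, against 65.6 and 95.6 in the flow-through (mean 10.7 ± 1.99 against 80.6 ± 21.2, SD, n = 2 each). Both AGO2-IP values were below both flow-through values, and the control showed the same order with 21.1 against 53.5 CPM. The log2 fold change in the mimic was -3.01 ± 0.68 (SE, 95% interval -4.51 to -1.52, edgeR adjusted p = 0.0617). With the replicate number as a block, MLST8 passed the threshold at -2.94 (adjusted p = 0.00623, with 5.08% of all genes called lower), and each AGO2-IP was below its own flow-through, by -2.64 in replicate 1 and -3.23 in replicate 2. MLST8 also passed with PyDESeq2 (-3.02, adjusted p = 0.000315) and with a filter of 200 counts in every library of the higher fraction (-3.15, adjusted p = 0.0221, 6.02% of genes called lower). Against a single flow-through library, without the first or the second replicate, it was at -3.49 and -2.43 (adjusted p = 0.000811 and 0.0342, with 20.6% and 3.4% of genes called lower, spread from the AGO2-IP pair alone). It did not pass without either AGO2-IP replicate in turn (-2.82 and -3.30, adjusted p = 0.784 and 0.647). After removal of each library's GC trend, the change was -1.77 (adjusted p = 0.0506 without the block and 0.00391 with it, where 12.7% of genes were called lower), so its size depended on this correction by more than 1.5 times. MLST8 shares 201 exon bases with BRICD5 on the opposite strand, and 2.30% to 14.7% of its stranded reads were left out of the unstranded count. The stranded columns gave -3.13 and -2.93.

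RPTOR, the partner with the 3'UTR seed match, did not separate the mimic AGO2-IP from the flow-through, and its direction depended on the processing. Its CPM was 72.5 and 63.0 in the mimic AGO2-IP, and its flow-through values were 71.4 and 132 (67.7 ± 6.70 against 102 ± 43.2, SD, n = 2 each), and the groups overlapped. The log2 fold change was -0.72 ± 0.65 (SE, 95% interval -2.14 to 0.70, edgeR adjusted p = 0.512). This interval ended below 1 but holds for the TMM fit without GC correction. With the GC trend removed RPTOR was at 0.38. Within replicates the values were 0.20 and -1.33. Against flow-through replicate 2 alone, with the spread taken from the AGO2-IP pair, it was at -1.30 (adjusted p = 0.0363, where 20.6% of genes were called lower), and without flow-through replicate 2 it turned to 0.10 (adjusted p = 0.905). The 157 genes with a 3'UTR 7mer-m8, those with the 8mer included, had a median log2 fold change of 0.49 in the mimic. Genes without one had -0.06. The same genes that could be compared in the control (119) had a median of 0.50 against 0.01. No median was taken for 7mer-m8 genes without the 8mer, which is the class of RPTOR. The 37 genes with an 8mer had 0.85 against -0.05 in the mimic and, over 29 genes, 0.45 against 0.01 in the control. Genes with the 8mer also had a lower median GC content, 42.9% against 48.0% without it. For the 7mer-m8 it was 47.2% against 48.0%. The part of base composition in these medians was not tested. RPTOR in the control was at 0.55, with 95.5 CPM against 35.0.

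RICTOR, the defining subunit of mTORC2, was well above 1 flow-through library and level with the other. Its CPM was 72.3 and 74.9 in the mimic AGO2-IP, and its flow-through values were 78.3 and 11.6. Both AGO2-IP replicates thus lay close together at 73.6 ± 1.84 (SD, n = 2), the flow-through replicates did not, and after TMM scaling the AGO2-IP was above flow-through replicate 1 by as little as 0.06. The log2 fold change was 0.85 ± 0.74 (SE, 95% interval -0.78 to 2.48, edgeR adjusted p = 0.501). Against flow-through replicate 2 alone, with the spread taken from the AGO2-IP pair, it was at 2.34 (adjusted p = 0.00557, where 20.2% of genes were called higher), and it was at 0.09 without flow-through replicate 2 (adjusted p = 0.915).

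Upstream of mTORC1, AKT1 was lower in both mimic AGO2-IP libraries than in both flow-through libraries and TSC1 was higher in both, in CPM and after TMM scaling. TSC2 overlapped on both scales, and RHEB only after TMM scaling. AKT1 had 182 and 191 CPM in the AGO2-IP against 239 and 512 in the flow-through (187 ± 6.15 against 375 ± 193, SD, n = 2 each), a log2 fold change of -1.15 ± 0.66 (SE, edgeR adjusted p = 0.304). Without flow-through replicate 1 it was called at -1.78 (adjusted p = 0.00957, where 20.6% of genes were called lower), again against 1 flow-through library. AKT1 shares 663 exon bases with a long noncoding RNA gene on the opposite strand, and 9.61% to 28.5% of its stranded reads were left out of the unstranded count, the lowest share in flow-through replicate 2. Other tested partners also overlap genes on the opposite strand. These are TSC2 with PKD1 (784 exon bases), TSC1 with GFI1B (349), RICTOR with OSMR (229) and RPTOR with long noncoding RNA genes (57 to 133 each).

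TSC1, the stabilising subunit of the TSC complex, had 78.2 and 64.0 CPM in the mimic AGO2-IP against 48.5 and 27.6 in the flow-through. Its log2 fold change was 0.91 ± 0.59 (SE, 95% interval -0.39 to 2.20, edgeR adjusted p = 0.360), and the 2 replicates gave 0.87 and 0.96 against their own flow-through. This was the closest accord between replicates among the 9 partners, and over 18 alternative settings TSC1 stayed between 0.73 and 1.28 without passing the threshold in any.

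TSC2, the catalytic subunit of the complex, had 90.4 and 69.3 CPM in the mimic AGO2-IP against 88.2 and 133 in the flow-through, a log2 fold change of -0.58 ± 0.62 (SE, edgeR adjusted p = 0.587). Its within-replicate values, 0.21 and -1.20, resembled those of RPTOR. RHEB had 254 and 250 CPM in the AGO2-IP against 259 and 371 in the flow-through, at -0.42 ± 0.60 (SE, edgeR adjusted p = 0.693). In CPM both RHEB values of the AGO2-IP were below both of the flow-through, by a narrow margin in replicate 1, and after TMM scaling they overlapped, with 0.15 in replicate 1 and -0.82 in replicate 2.

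The output genes lay on opposite sides. RPS6KB1, the S6 kinase, had 111 and 74.6 CPM in the mimic AGO2-IP against 63.2 and 9.64 in the flow-through, so that both AGO2-IP values were above both flow-through values. Its log2 fold change was 1.47 ± 0.75 (SE, 95% interval -0.18 to 3.13, edgeR adjusted p = 0.255), and it was called without flow-through replicate 1 (2.93, adjusted p = 0.00262, where 20.2% of genes were called higher), which leaves 1 flow-through library, and was at 0.72 without flow-through replicate 2. EIF4EBP1, the translation inhibitor, had 29.5 and 56.9 CPM in the AGO2-IP against 116 and 65.7 in the flow-through, with both AGO2-IP values below. Its log2 fold change was -1.05 ± 0.63 (SE, 95% interval -2.43 to 0.32, edgeR adjusted p = 0.319), and it was the partner whose AGO2-IP replicates differed most, by 1.01.

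**Figure D2:**
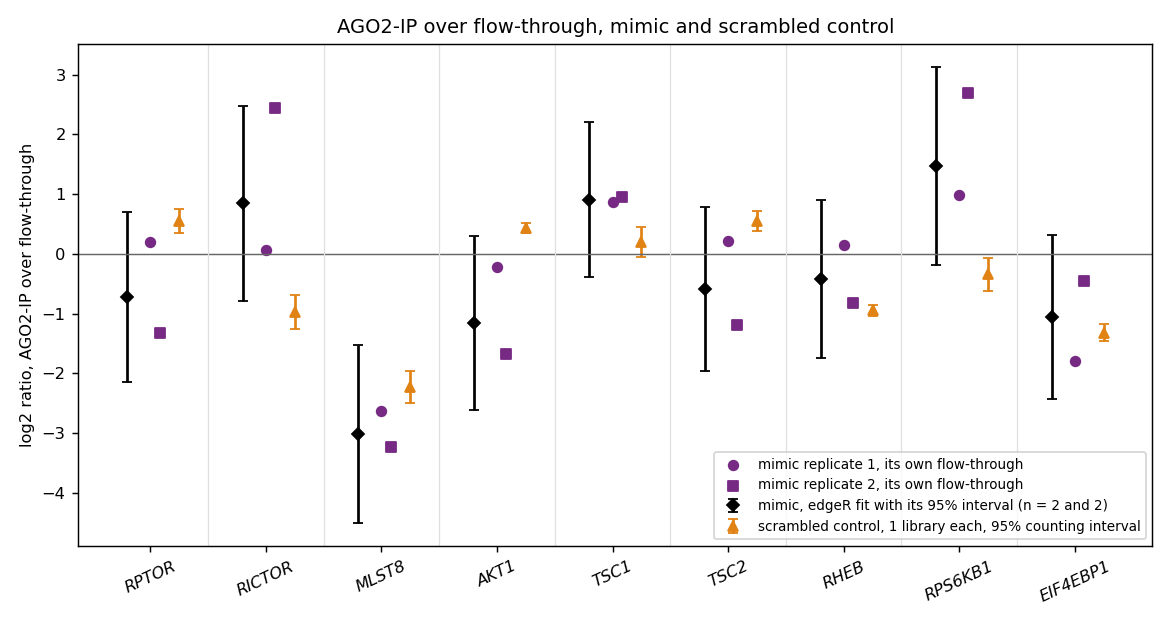
Log2 ratio of AGO2-IP over flow-through for the 9 partners tested, with the edgeR estimate in the mimic and its 95% interval (black, n = 2 and 2), each mimic replicate against its own flow-through (purple) and the single pair of control libraries with a 95% counting interval (orange). MLST8 is below 0 in every pair, whereas RICTOR (0.06 and 2.44) and AKT1 (-0.21 and -1.67) show how far the 2 mimic replicates lie apart.

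On TMM-scaled log2 CPM, both mimic AGO2-IP values were above both flow-through values for 3 partners (RICTOR, TSC1 and RPS6KB1), below for 3 (MLST8, AKT1 and EIF4EBP1) and overlapping for 3 (RPTOR, TSC2 and RHEB). The scale decided 2 of these, since in CPM both RICTOR values of the AGO2-IP were below flow-through replicate 1 and RHEB did not overlap, and the margin of RICTOR after scaling was 0.06. Of all 13078 genes, 28.1% were above and 28.5% below, and 56.7% of all genes lay apart in one direction or the other, so the 6 of 9 partners are read as near this background.

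The replicate spread of the partners was larger in the flow-through than in the AGO2-IP and ran with base composition. On the log2 scale, flow-through replicate 2 minus replicate 1 was -2.26 for RICTOR and -2.21 for RPS6KB1, whose main transcripts have the lowest GC content of the set (36.5% and 37.2%). It was 1.59 for AKT1, 1.39 for RPTOR, 1.09 for TSC2 and 1.04 for MLST8, all with 60.05% GC or more. EIF4EBP1 (62.9% GC) at -0.32 did not follow this order, and RHEB and TSC1, near the median of all genes at 48.0% and 48.3% GC, were at 1.01 and -0.32. In the AGO2-IP the same difference stayed between -0.51 and 0.44 for 8 partners, with EIF4EBP1 at 1.01. Over 11747 protein-coding genes, Spearman's rho between this difference and GC content was 0.755 in the flow-through and 0.006 in the AGO2-IP, as a description across genes that share 4 libraries. The GC correction removed each library's GC trend relative to the mean of the 4 libraries. It thus took out any GC trend between AGO2-IP and flow-through as well as that between replicates. After it, the AGO2-IP over flow-through values were 0.31 for RICTOR, 0.09 for AKT1, 0.38 for RPTOR and 0.50 for TSC2. RPTOR, AKT1 and TSC2 changed sign, while TSC1 (0.80), RPS6KB1 (0.93) and MLST8 (-1.77) kept theirs. Which of these trends moved the values was not tested.

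**Figure D3:**
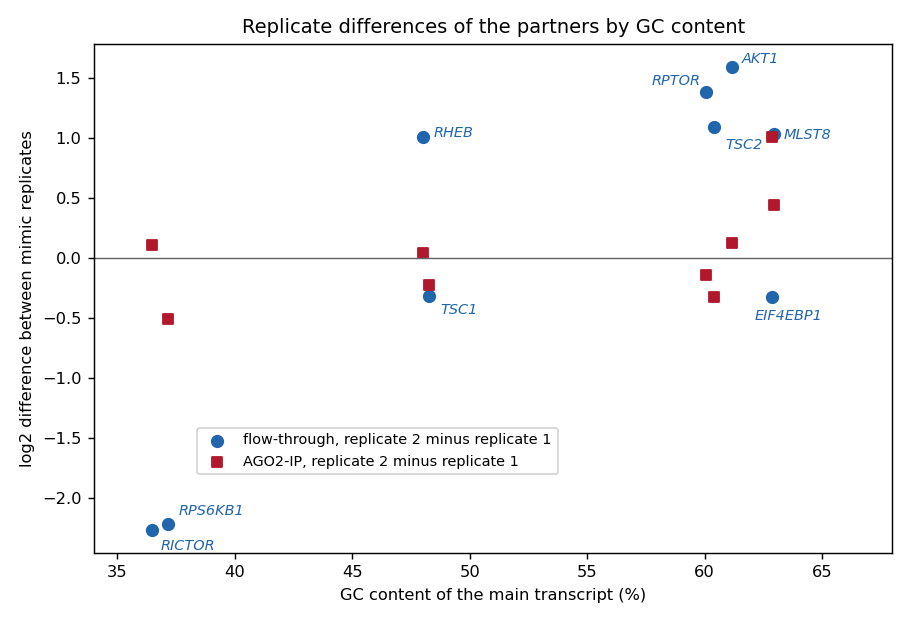
Log2 difference between the 2 mimic replicates (replicate 2 minus replicate 1) in the flow-through (blue circles, named) and in the AGO2-IP (red squares) against the GC content of each partner's main transcript. RICTOR and RPS6KB1 at 36.5% and 37.2% GC are lower in flow-through replicate 2 (-2.26 and -2.21), and the partners at or above 60.05% GC, except EIF4EBP1, are higher by 1.04 to 1.59.

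**Figure D4:**
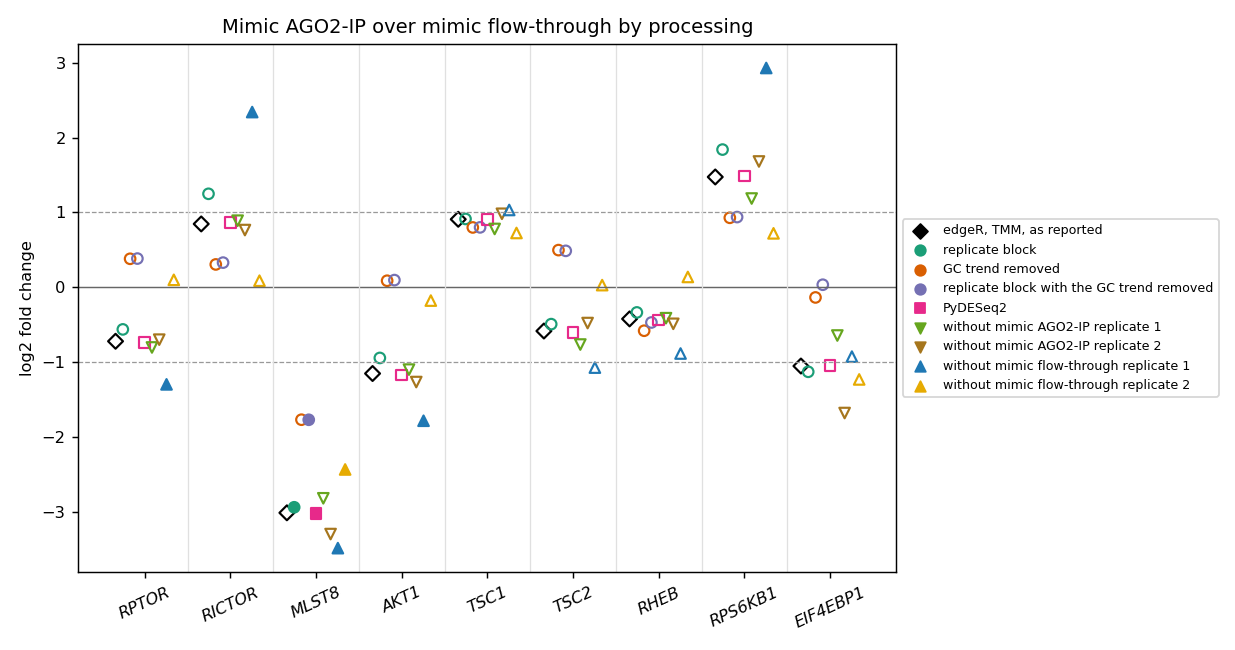
Log2 fold change of mimic AGO2-IP over mimic flow-through for each partner under 9 ways of processing, with filled symbols where the absolute log2 fold change was at least 1 and the adjusted p below 0.05. MLST8 is at -1.77 or below in every one, whereas RICTOR ranges from 0.09 to 2.34 and RPTOR from -1.30 to 0.38. Settings without a flow-through replicate take their spread from the AGO2-IP pair alone.

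In the scrambled control, 1 AGO2-IP library was set against 1 flow-through library, so there is no replicate check and no test. MLST8 was at -2.22 (95% counting interval -2.49 to -1.96) and EIF4EBP1 at -1.32 (-1.46 to -1.18) on the log2 scale, and these were the 2 of 9 partners at -1 or below, against 18.1% of the 8245 genes compared. No partner reached 1, against 15.9% of all genes. RPTOR (0.55), TSC2 (0.55), AKT1 (0.44) and TSC1 (0.20) were above 0, and RICTOR (-0.97), RHEB (-0.94) and RPS6KB1 (-0.34) below. The intervals cover counting error only. Scaling moved these values more than counting did. With library size alone in place of TMM, all values rose by about 0.89, RPTOR, TSC2, AKT1 and TSC1 came to 1.44, 1.44, 1.33 and 1.08, MLST8 to -1.34 and EIF4EBP1 to -0.43, and RPS6KB1 changed sign to 0.54.

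Between mimic and control AGO2-IP libraries, RICTOR and RPS6KB1 were higher with the mimic and AKT1 and EIF4EBP1 lower, each measured against 1 control library and without a test. RICTOR had 72.3 and 74.9 CPM against 25.6, which gave log2 ratios of 1.60 and 1.71 and a mean of 1.65. RPS6KB1 had 111 and 74.6 CPM against 34.9 (1.77 and 1.26, mean 1.51). AKT1 had 182 and 191 CPM against 511 (-1.38 and -1.26, mean -1.32). For these 3 genes both mimic libraries lay past 1 in size on the same side. EIF4EBP1 had 29.5 and 56.9 CPM against 90.4, and its log2 ratios of -1.51 and -0.51 averaged -1.01. Of the 9 partners, 2 were therefore at 1 or above and 2 at -1 or below, against 17.3% and 17.4% of the 11467 genes compared, and 2 and 1 in both mimic libraries, against 12.2% in each direction. With the GC trend removed none remained past 1 (RICTOR 0.71, RPS6KB1 0.61, AKT1 -0.50 and EIF4EBP1 -0.12). In an edgeR fit of all 6 libraries, in which the lone control was assumed to vary like the mimic libraries, adjusted p ranged from 0.695 for RICTOR to 0.930 for RPTOR.

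RPTOR was nearly level between the AGO2-IP libraries, at -0.29 and -0.44, and MTOR with the same kind of site was at 0.77 and 0.51. IGF1R with its 8mer was at 0.22 and 0.04. The median over 148 genes with a 3'UTR 7mer-m8, those with the 8mer included, was 0.19, against 0.005 without one. Over 35 genes with an 8mer it was 0.37 against 0.007. The remaining partners had means of -0.85 for MLST8, -0.57 for TSC2, 0.24 for RHEB and 0.52 for TSC1. None of these reached the fold used.

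In the flow-through, RPTOR was the partner past 1, with 71.4 and 132 CPM in the mimic against 35.0 in the control. Its log2 ratios of 0.30 and 1.71 averaged 1.003, so the value rested on replicate 2. This is 1 of 9 partners, against 10% of the 12254 genes compared, and 0 of 9 at -1 or below, against 10.2%. RICTOR (0.80 and -1.44), RPS6KB1 (0.67 and -1.52), AKT1 (-0.50 and 1.12), MLST8 (-0.43 and 0.63) and RHEB (-0.64 and 0.40) took opposite signs in the 2 replicates. EIF4EBP1 was lower in both (-0.80 and -1.10), and TSC1 was near 0 in both (0.20 and -0.09). With library size alone the median of all genes moved from 0.05 to 0.52. MTOR was at 0.91 and 0.93 in the flow-through, with its replicates close together. The AGO2-IP and flow-through ratios draw on the same control libraries as the control comparison.

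**Figure D5:**
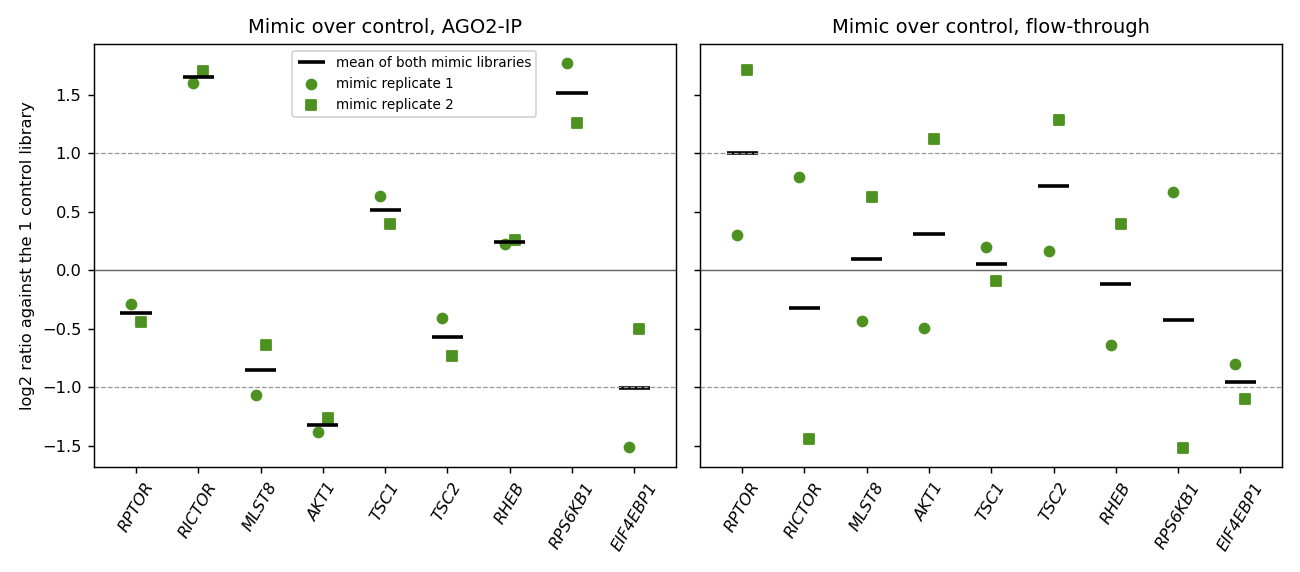
Log2 ratio of each mimic library over the 1 control library of the same fraction, for the AGO2-IP (left) and the flow-through (right), with the mean as a bar and dashed lines at -1 and 1. For RICTOR the replicates lie close together in the AGO2-IP (1.60 and 1.71) and apart in the flow-through (0.80 and -1.44). EIF4EBP1 goes the other way, with -1.51 and -0.51 in the AGO2-IP and -0.80 and -1.10 in the flow-through.

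Whether the AGO2-IP over flow-through ratio itself differed between mimic and control was tested as an interaction over all 6 libraries. No partner and none of the 13319 genes passed (0%, edgeR adjusted p = 0.9999 for each partner), at an unadjusted p below 0.05 the counts were 0 partners and 82 genes, and PyDESeq2 called 0 genes (222 at an unadjusted p below 0.05). The largest estimates were -1.79 for AKT1 (95% interval -4.31 to 0.73), 1.62 for RICTOR (-1.25 to 4.48) and 1.62 for RPS6KB1 (-1.25 to 4.48). RPTOR was at -1.48 (-3.93 to 0.98) and MLST8 at -0.98 (-3.40 to 1.45). These intervals all include 0, and the lone control libraries were assumed to vary like the mimic ones. With single mimic libraries left out in turn, estimates ranged from 0.89 to 3.17 for RICTOR, 0.90 to 3.13 for RPS6KB1 and -2.37 to -0.79 for AKT1. Such fits leave 1 library in a mimic group, so only these sizes are given.

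MTOR, the kinase the partners assemble around, and the receptor IGF1R had small estimated differences between the mimic fractions. MTOR had 123 and 98.6 CPM in the mimic AGO2-IP against 110 and 78.2 in the flow-through, a log2 fold change of 0.21 ± 0.58 (SE, edgeR adjusted p = 0.847). IGF1R had 78.2 and 66.4 CPM against 58.6 and 44.2, at 0.47 ± 0.58 (SE, edgeR adjusted p = 0.645). Neither passed the threshold. Both were above their flow-through in each pair after scaling, by 0.08 to 0.33 for MTOR and 0.33 to 0.59 for IGF1R, and in the control by 0.24 and 0.66.

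The genes whose pattern was most like that of RPTOR across the 6 libraries, by Pearson's r of log2 CPM over 13318 genes, were TYSND1 (0.996), CPSF1 (0.996) and ZNF276 (0.994), and 89 genes exceeded 0.95. For RICTOR they were CHM (0.998), ZNF484 (0.994) and ARCN1 (0.994), with 253 genes above 0.95. With 6 libraries of unequal depth and base composition these values are a description of likeness only.

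The wider pathway was followed in 78 further genes, of which 73 were tested in the mimic. None of the 73 passed the threshold in the mimic AGO2-IP over flow-through comparison or in the interaction (edgeR), and 15 had an unadjusted p below 0.05 in the former, beside 23.8% of all genes, and 1 in the latter. PyDESeq2 called 10 in the mimic comparison, beside 14.7% of all genes, and the fit with the replicate block called 5, beside 9.67% of all genes. The median log2 fold change was 0.12 for the 7 genes of mTOR complexes and their assembly, 0.51 for the 21 of insulin receptor, PI3K and AKT, 0.88 for the 9 of energy and stress inputs to TSC, 0.01 for the 24 of amino acid sensing at the lysosome and 0.15 for the 12 outputs, beside -0.11 for all genes. Both AGO2-IP libraries were above both flow-through libraries for 27 of the 73 and below for 14 on TMM-scaled values, beside 28.1% and 28.5% of all genes.

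Named here for their size after the values were seen, the most AGO2-IP-sided gene of these lists was PDCD4, an inhibitor of the helicase EIF4A whose loss is promoted by S6 kinase, at 3.75 ± 0.80 (SE, edgeR adjusted p = 0.0543). MIOS, a subunit of the GATOR2 complex that relieves inhibition of mTORC1, was at 2.52 (adjusted p = 0.0713) and SGK1, a kinase activated through mTORC2, at 2.44 (adjusted p = 0.0820). On the flow-through side were NPRL3, a subunit of the mTORC1 inhibitor GATOR1, at -2.03 (adjusted p = 0.109) and AKT1S1, the mTORC1 component also called PRAS40, at -2.02 (adjusted p = 0.103). In the control the same direction was seen for PDCD4 (0.60), MIOS (1.76), SGK1 (1.63), NPRL3 (-1.42) and AKT1S1 (-1.33).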

How the data were processed

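Per the labels and methods, reads were checked with FastQC 0.11.9, trimmed with Cutadapt 3.5 and aligned to GRCh38 with STAR 2.7.11b, whose quantification mode gave the deposited gene counts per library (whole numbers, not normalized). The Ensembl release is not given in the sources used here. The first count column, which ignores strand, was used, because 46.0% to 57.7% of the partners' stranded reads fell in the next column, with DEPTOR left out. Of 60708 identifiers, 60507 were found in GENCODE 44 on GRCh38, which gave names, exon lengths, GC content and transcripts. Groups follow the sample labels. A supplementary table of the study lists both control libraries as control replicates without a fraction. The series holds no IgG library, so no AGO2-IP value has an IgG background.

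Counts were fitted with edgeR 4.0.16 (TMM, quasi-likelihood, summed count of at least 200, Benjamini-Hochberg over all genes, threshold of 1 on the log2 scale and adjusted p below 0.05), with PyDESeq2 0.5.4 and DESeq2 1.42.0 as alternatives. Comparisons with 1 control library are log2 ratios of TMM-scaled CPM with a prior count of 2. The replicate numbers in the labels pair the fractions of the mimic, and the deviations of same-numbered libraries correlated at r = 0.324 (rho = 0.236) across genes. Log2 CPM of single libraries used the same scaling. GC correction removed the lowess trend (span 0.2) of each library's deviation from the mean of the libraries fitted, and so also any GC trend between groups. Counting intervals are exact binomial at 95% and cover counting error only, since PCR copies are not independent molecules. Gene counts per library ranged from 7772149 to 48544756. The scripts were tested on simulated data. The rule for named genes took all 10 partners, MTOR, IGF1R, any gene of the wider lists called in the mimic or interaction fit, and the 3 genes most like RPTOR and RICTOR. No wider-list gene was called in those edgeR fits as reported. PDCD4, MIOS, SGK1, NPRL3 and AKT1S1 were named outside this rule, for their size. The partners and lists were chosen with earlier results of these data known.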

Additional observations from a re-analysis of the deposited data

Results flagged for a closer look

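On TMM-scaled log2 CPM, for 3 partners every mimic AGO2-IP library lay on one side of every mimic flow-through library while the control pair lay on the other. RICTOR was at 0.85 in the mimic and -0.97 in the control, RPS6KB1 at 1.47 and -0.34, and AKT1 at -1.15 and 0.44 on the log2 scale. The margin in the mimic was 0.06 for RICTOR, whose unscaled CPM did not lie on one side (72.3 and 74.9 against 78.3 and 11.6). The difference between mimic and control was tested as an interaction and did not pass for any of them (edgeR adjusted p = 0.9999 for each). Over 8225 genes with a value in both, 11.6% had mimic and control on opposite sides in this way. RICTOR and RPS6KB1 have the lowest GC content of the partners and AKT1 one of 61.2%. With the GC trend removed, RPS6KB1 was at 0.93 in the mimic and 0.12 in the control, AKT1 at 0.09 and 0.40, and RICTOR at 0.31 and -0.41. No group held 4 or more libraries, so single libraries were not tested as outliers.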

How the results depend on the processing

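In the mimic comparison the number of partners called was 0 as reported and 1 with the replicate block, with the block and the GC trend removed, with the filter of 200 counts per library, with DESeq2 and with PyDESeq2, in each case MLST8. Leaving out libraries in turn gave 0 to 5, where the arm left with 1 library was assumed to vary like the other. Calls in the wider lists went from 0 to 1 (summed count of at least 10), 3 (no count filter), 4 (200 counts in every library), 5 (replicate block), 15 (block with GC), 4 (GC) and 10 (DESeq2 and PyDESeq2), and 0 to 34 with libraries left out. Over all genes, calls went from 86 to 1265 with the block, 1923 with PyDESeq2, 5003 without flow-through replicate 1 and 655 without flow-through replicate 2. Of the same 13078 genes, 743 were called with the GC trend removed, 3493 with the block as well, and 1994 with DESeq2. The filters gave 230 of 26358 genes (summed count of at least 10), 623 of 43635 (no filter) and 952 of 10185 (200 counts in every library). The fit without flow-through replicate 1 tested 12270 genes and gave the highest partner and wider-list counts. With the GC trend removed, without and with the block, signs turned for RPTOR (0.38 and 0.38) and AKT1 (0.0877 and 0.0963). They also turned for TSC2 (0.50 and 0.49), and with the block only for EIF4EBP1 (0.0343). RHEB turned to 0.00762 with a summed count of at least 10 and 0.0539 with no filter. With libraries left out, RPTOR ranged from -1.30 to 0.10, TSC2 from -1.07 to 0.0291 and RHEB from -0.88 to 0.14.

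In the interaction no partner was called under any alternative, the replicate block included, which left EIF4EBP1 at -0.00846. Signs turned with library size alone for TSC1 (-0.19), RHEB (-0.27) and EIF4EBP1 (-0.64), and with the GC trend removed for MLST8 (0.36) and MTOR (0.20). With libraries left out, RHEB ranged from -0.0895 to 0.909, EIF4EBP1 from -0.39 to 0.48 and MTOR from -0.377 to 0.0210. The replicate block changed no other call of a partner.

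In the control comparison with library size alone, partners at 1 or above went from 0 to 4, beside 3802 of 8245 genes. Those at -1 or below went from 2 to 1, beside 417 genes. With the second stranded column the latter were 4, beside 1182 of 6732 genes. Between AGO2-IP libraries, partners at 1 or above went from 2 to 0 with the GC trend removed, and those at -1 or below from 2 to 1 with a summed count of at least 10 and to 0 with the GC trend removed. Without single libraries the latter were 1 to 3. In the flow-through, partners at 1 or above went from 1 to 2 with library size alone, beside 3180 of 12254 genes. They were also 2 with a summed count of at least 10, beside 6052 of 24790 genes. They were 0 with DESeq2 size factors and with the GC trend removed, beside 1074 and 881 of 12254 genes. They were also 0 without mitochondrially encoded genes (896 of 12237) and with the first stranded column (1213 of 12619). Those at -1 or below went from 0 to 1 with DESeq2 size factors and with the GC trend removed, beside 1392 and 1267 of 12254 genes. The same held without mitochondrially encoded genes (1554 of 12237) and with the second stranded column (1219 of 12512). Single mimic libraries gave the ratios stated above, and TSC2 was at 0.16 and 1.28. The length of the main transcript left 1 of 10 partners at its rank, and searching all transcripts raised those with a 3'UTR 6mer from 1 to 3. The causes were not tested. DEPTOR was at 1.36 CPM or less in every library and failed the count filter in the mimic comparison as well. It had 4 counts in each control library. With 1 control library per fraction, no control value has a replicate error.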
